A study of Mus musculus with 9 samples.

Results

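The mammalian circadian clock was followed through 10 genes: Arntl, Clock, Per1, Per2, Per3, Cry1, Cry2, Nr1d1, Nr1d2 and Dbp. They were taken by gene symbol, as 10 rows of the 46517 in the expression table, and each symbol was found. The genes were chosen with earlier results of these data known. After a filter on read number, at least 10 reads in at least 3 libraries, 9 of the 10 could be tested and Dbp could not. Nr1d1 and Nr1d2 met this filter only through the 3 tumor libraries, where they were high. Their differences between tumor and the other compartments are therefore given as a description, with no p. Their calls are included in the counts over the 9 genes and under other settings, where they are a description only. The main counts of each comparison are also given over the 7 genes without them.

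Neutrophils had been sorted from bone marrow, blood and tumor of OT mice at day 27, with 3 libraries per compartment and 9 in all. OT mice were C57BL/6 mice that carried an orthotopic transplant in the pancreas of a luciferase-expressing derivative of FC1242, a pancreatic ductal adenocarcinoma (PDAC) line from KPC mice. All 9 libraries came from such mice, and no mice without a tumor are analysed here. Live CD45+ cells that lacked CD3, B220 and NK1.1 and carried Ly6G and Ly6C were sorted from every compartment, and the labels describe the marrow cells as Ly6G high. Each library pooled several mice, of both sexes across the study, whose ages are not given in the sources used here. The tumor model is a single cell line in one strain. Tumors were digested with collagenase and DNase at 37 °C, whereas blood was drawn by cardiac puncture and its red cells were lysed, so handling and compartment cannot be told apart. The paper describes the marrow and blood neutrophils as coming from the same mice as the tumor neutrophils. The hour of collection is not given in the sources used here. Whether the 3 compartments were taken at one hour, or the 3 libraries of a compartment at one time of day, is not stated.

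The circadian clock is a feedback loop of transcription that runs in most cells of the body, neutrophils included. The BMAL1 protein, made from Arntl, and CLOCK bind E-box sequences as a pair and switch on the Per, Cry and Nr1d genes and Dbp. PER and CRY proteins then return to the nucleus and hold the BMAL1-CLOCK pair back, while REV-ERBα and REV-ERBβ, made from Nr1d1 and Nr1d2, repress Arntl. Per1 and Per2 also answer quickly to outside signals such as glucocorticoids and cyclic AMP, and in circulating neutrophils the clock is known for its part in daily ageing and release.

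Promoters of 9 of the 10 genes, in 13 windows of 250 bases before an annotated start, were found in RefSeq on GRCm38.p6, and Per2 had no entry. Both strands were searched for the E-box CACGTG, the D-box TTATGTAA or TTACGTAA (the site of DBP and its relatives), the half-site AGGTCA (read by REV-ERB and ROR proteins) and the cyclic AMP response element (CRE) TGACGTCA. The 4 windows below are shown because Per1 and Cry1 were the clock genes whose windows hold an E-box, and because Nr1d1 and Nr1d2 had the largest fold changes in tumor. Capitals mark the matches, and TGACCT is AGGTCA on the other strand. Each reads 5′ to 3′ along the gene's own strand.
Per1 (chr11:69098699-69098948, plus strand): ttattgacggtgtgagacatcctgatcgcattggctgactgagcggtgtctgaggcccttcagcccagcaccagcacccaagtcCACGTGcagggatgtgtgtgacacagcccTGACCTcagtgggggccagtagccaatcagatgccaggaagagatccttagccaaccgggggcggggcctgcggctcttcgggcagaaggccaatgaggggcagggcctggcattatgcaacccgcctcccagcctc
Cry1 (chr10:85185055-85185304, minus strand): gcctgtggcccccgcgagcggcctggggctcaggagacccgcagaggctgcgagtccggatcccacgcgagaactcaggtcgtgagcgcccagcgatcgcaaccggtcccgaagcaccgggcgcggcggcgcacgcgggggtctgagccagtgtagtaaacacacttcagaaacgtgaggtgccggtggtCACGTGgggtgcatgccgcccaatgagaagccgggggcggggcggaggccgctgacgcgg
Nr1d1 (chr11:98775378-98775627, minus strand): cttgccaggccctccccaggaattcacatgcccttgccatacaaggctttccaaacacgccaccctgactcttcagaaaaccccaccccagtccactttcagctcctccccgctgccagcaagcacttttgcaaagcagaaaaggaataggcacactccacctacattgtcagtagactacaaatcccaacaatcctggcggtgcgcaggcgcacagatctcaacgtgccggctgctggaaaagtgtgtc
Nr1d2 (chr14:18239107-18239356, minus strand): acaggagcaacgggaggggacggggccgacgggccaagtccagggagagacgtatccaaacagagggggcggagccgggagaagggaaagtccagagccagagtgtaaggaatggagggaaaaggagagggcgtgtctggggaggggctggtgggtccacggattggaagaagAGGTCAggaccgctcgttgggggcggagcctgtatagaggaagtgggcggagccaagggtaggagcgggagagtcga

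The E-box was in 6.02% of all 32851 promoter windows of this length, and the half-site AGGTCA was in 14%. The half-site lay in the printed windows of Per1 and Nr1d2 and in a window of Clock. Per3 alone among the 9 genes held the D-box, in 2 copies, against 0.931% of all windows. None of the 13 windows held the full CRE, which 1.55% of all windows hold. The Nr1d1 window held none of these letters. A match is a description of the sequence only, and sites outside these windows were not searched.

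The values were log2 FPKM as the authors scaled them. Whole reads were recovered from these values, which gave 7108871 to 7949367 reads per bone marrow library, 4580807 to 6830374 per blood library and 5446499 to 6969557 per tumor library. Levels in RPM are reads per 1000000 reads of the library as scaled by the authors, with scaling factors of 0.7959 to 0.8815 in bone marrow, against 0.8176 to 0.8626 in blood and 1.085 to 1.2212 in tumor. Correlations between libraries of a compartment were 0.938 to 0.966 over genes, and those between compartments were 0.649 to 0.884. The 7 neutrophil markers summed to 36186 to 38788 RPM in bone marrow, against 34334 to 36742 in blood and 7497 to 9483 in tumor. All 8 tumor epithelium markers, 6 fibroblast markers and 5 acinar markers were detected in every tumor library. The tumor epithelium markers summed to 2513 to 4782 RPM in tumor, 25.4 to 172 in blood and 10.1 to 13.0 in bone marrow, with the 172 in blood library 2. The fibroblast markers summed to 962 to 1106 in tumor and at most 12.6 elsewhere, and the acinar markers to 412 to 1569 in tumor and at most 3.40 elsewhere. Endothelium markers reached 17.1 to 26.2 in tumor against at most 2.33 elsewhere. Platelet markers summed to 489 to 676 in blood and at most 11.1 elsewhere, and red cell markers to 247 to 505 in blood against 9.51 to 114 elsewhere. Lymphocyte markers summed to 50.8 to 91.1 in blood, 13.7 to 33.3 in bone marrow and 3.02 to 4.36 in tumor, and macrophage markers to 399 to 436 in blood, 134 to 165 in bone marrow and 219 to 356 in tumor. Immature neutrophil markers summed to 76919 to 87560 in bone marrow, against 1165 to 1561 in blood and 3815 to 7518 in tumor. The part of these other cells in each clock gene's level was not tested, and in bulk samples fewer cells of a type and less RNA per cell cannot be told apart.

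The compartments were compared to ask which clock genes differ between neutrophils of the marrow, the circulation and the tumor. Per2 was high in blood and low in bone marrow and tumor, Per1 was higher in blood than in bone marrow and highest in tumor, and Nr1d1 and Nr1d2 were near the detection limit outside the tumor. Cry1, Cry2, Per3 and Clock did not pass the test in any comparison, although each did under some other scaling of the libraries. In tumor against blood, 3 of the 9 tested genes were higher (Per1, Nr1d1 and Nr1d2) and 1 was lower (Per2), where 39.1% of all 13014 genes tested were higher and 27.1% lower, 66.2% in all. In tumor against bone marrow, 4 were higher (Arntl, Per1, Nr1d1 and Nr1d2) and 0 lower, where 30.0% of all genes were higher and 25.8% lower, 55.8% in all. In blood against bone marrow, 2 were higher (Per1 and Per2) and 0 lower, where 17.8% were higher and 24.6% lower, 42.5% in all. An F-test over the 3 compartments called 5 of the 9 (Arntl, Per1, Per2, Nr1d1 and Nr1d2), where it called 77.1% of all genes. The calls of Nr1d1 and Nr1d2 in these counts are a description only, and apart from them the F-test called Arntl, Per1 and Per2. Among the 7 genes that met the filter without the tumor libraries, 1 was higher and 1 lower in tumor than in blood, 2 were higher and 0 lower in tumor than in bone marrow, and 2 were higher and 0 lower in blood than in bone marrow. In every comparison the share of clock genes called in either direction was below the background, with or without Nr1d1 and Nr1d2.

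The values of the 3 libraries did not overlap for 5 of the 9 genes between tumor and blood, for 7 between tumor and bone marrow and for 5 between blood and bone marrow. Over all genes tested the share was 70.1%, 65.3% and 55.4%. The median log2 fold change of the 9 genes was 0.25 between tumor and blood, 0.77 between tumor and bone marrow and 0.42 between blood and bone marrow, beside medians over all genes of 0.32, 0.09 and -0.11. Over the 7 genes without Nr1d1 and Nr1d2 the medians were 0.06, 0.52 and 0.46. When libraries were scaled by their plain totals, the medians over all genes were 0.76, 0.54 and -0.11. The split of all genes into higher and lower calls was 5094 and 3523 for tumor against blood and 3904 and 3354 for tumor against bone marrow, but 6316 and 2441, and 5407 and 2162, with plain totals, 3668 and 4865, and 3152 and 4520, with quantile normalization, and 4070 and 4806, and 3332 and 4082, with median centring. For blood against bone marrow it was 2320 and 3206, and 3064 and 2405 with median centring. The clock genes gave 4 higher and 1 lower in tumor against blood with plain totals, 3 and 4 with quantile normalization and 2 and 2 with median centring. Against bone marrow, tumor gave 7 and 0, 2 and 3, and 3 and 1 under these 3 settings. These counts of clock genes include Nr1d1 and Nr1d2. A difference of 0.32 between tumor and blood was therefore no more than the median log2 fold change over all genes. With median centring that median was -0.15, so somewhat larger differences can also be lost. An exact permutation test of 3 against 3 libraries can give no p below 0.1, so each call rests on limma, which shares its estimate of the spread across genes.

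**Figure D1:**
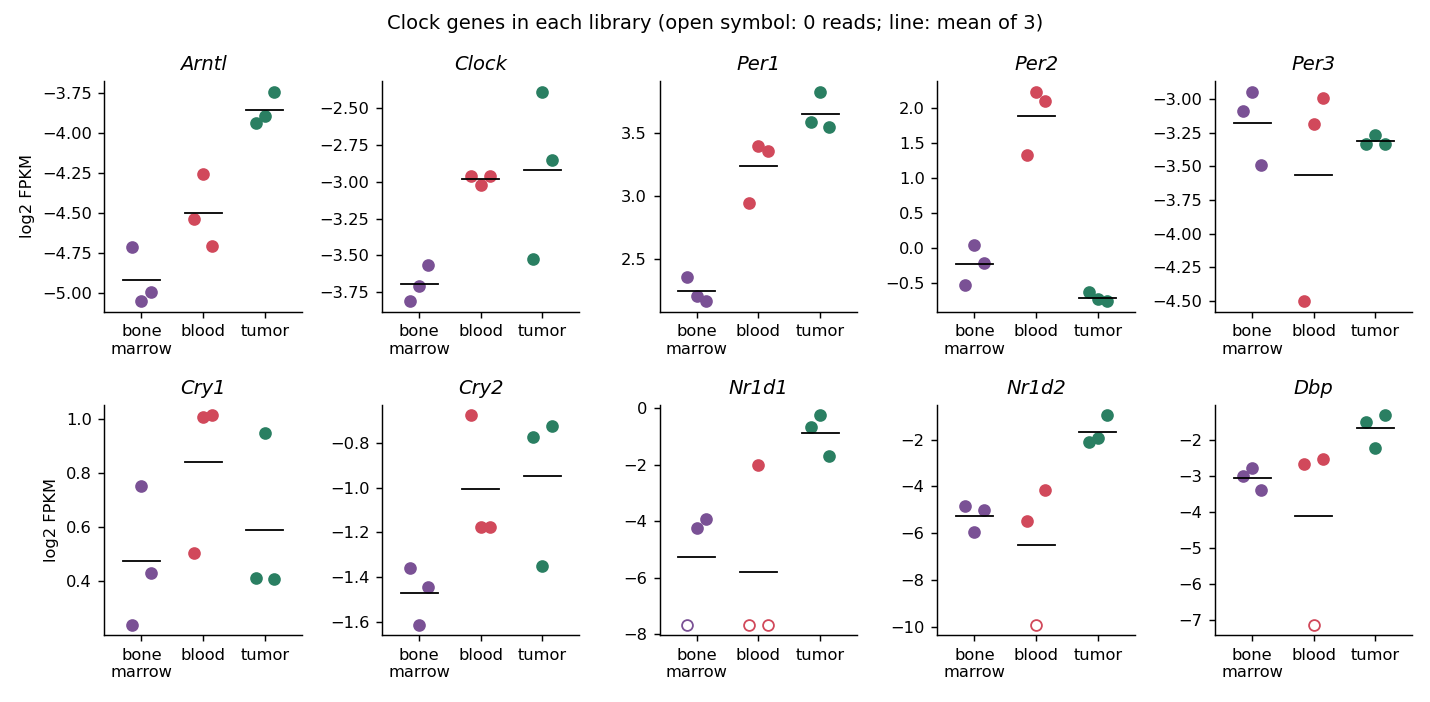
Level of each of the 10 clock genes in each library, in log2 FPKM on separate vertical axes, by compartment. Points are libraries, lines are means of 3, and open symbols are libraries with 0 reads. Per2 stands highest in the 3 blood libraries, Per1 rises from bone marrow to blood and is highest in tumor, and Nr1d1 and Nr1d2 stand apart in the 3 tumor libraries. The small step of Per1 from blood to tumor is lost when each library is centred on its median gene.

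**Figure D2:**
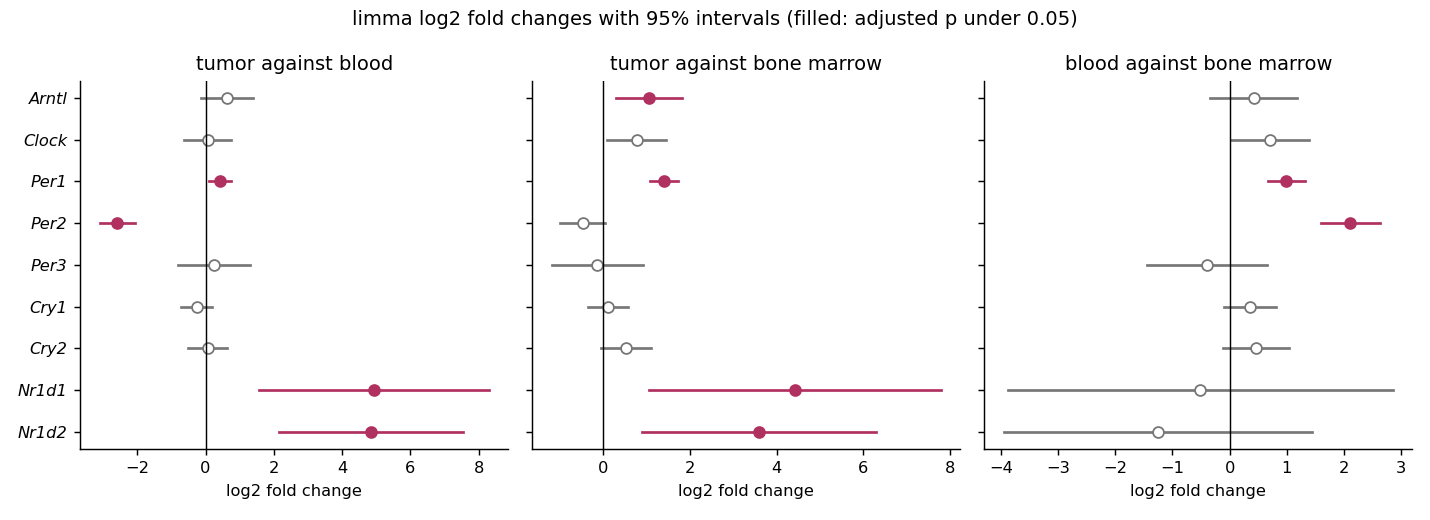
Log2 fold changes from limma with 95% confidence intervals for the 9 clock genes tested, in 3 comparisons on separate horizontal axes. Filled points have an adjusted p under the threshold. Per2 is the 1 gene lower in tumor than in blood, and the intervals of Nr1d1 and Nr1d2, which met the filter on reads only through tumor, are the widest. The filled points of Nr1d1 and Nr1d2 are a description only.

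Arntl (ENSMUSG00000055116.7, chr7:113207465-113314126) encodes BMAL1, the partner without which the loop does not run. It had 27, 18 and 22 reads in the bone marrow libraries, 18, 31 and 19 in blood and 43, 54 and 63 in tumor. Its log2 FPKM was -4.92 ± 0.18 (SD, n = 3) in bone marrow, against -4.50 ± 0.23 in blood and -3.86 ± 0.10 in tumor, and no compartment overlapped another on this scale. Tumor exceeded bone marrow in Arntl by 1.06 on the log2 scale (SE 0.34, adjusted p = 0.0229), but the direction turned with quantile normalization (-1.24, adjusted p = 0.0112). Without bone marrow library 2, bone marrow library 3 or tumor library 3 the adjusted p was 0.0615, 0.0527 and 0.0537. Against blood the difference was 0.64 (95% interval -0.12 to 1.41, adjusted p = 0.123), and for blood against bone marrow it was 0.42 (-0.34 to 1.18, adjusted p = 0.356). The difference of tumor from blood passed the test upward with plain totals (1.09, adjusted p = 0.0191) and downward with quantile normalization (-1.99, adjusted p = 0.000513).

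Clock (ENSMUSG00000029238.10, chr5:76209868-76304792, minus strand) encodes the partner of BMAL1. Bone marrow libraries held 45, 41 and 53 reads, blood libraries 48, 65 and 57 and tumor libraries 51, 137 and 104. In log2 FPKM this was -3.69 ± 0.12 in bone marrow, against -2.98 ± 0.04 in blood and -2.92 ± 0.57 in tumor (SD, n = 3). Bone marrow lay below both other compartments without overlap, and tumor spread on both sides of blood. The log2 difference was 0.77 for tumor against bone marrow (0.09 to 1.46, adjusted p = 0.0547), 0.71 for blood against bone marrow (0.03 to 1.40, adjusted p = 0.0885) and 0.06 for tumor against blood (-0.63 to 0.75, adjusted p = 0.873). Without tumor library 1, the first 2 passed the test, at 1.07 (adjusted p = 0.00944) and 0.71 (adjusted p = 0.0412). With plain totals Clock passed the test upward between tumor and bone marrow (1.22, adjusted p = 0.00661), and with quantile normalization it was lower in tumor than in blood (-1.68, adjusted p = 0.00419).

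Per1 (ENSMUSG00000020893.16, chr11:69095217-69109960) encodes a PERIOD repressor and is a quick responder to outside signals. It had 505, 385 and 439 reads in bone marrow, 448, 868 and 708 in blood and 1096, 1581 and 1368 in tumor. Mean log2 FPKM was 2.24 ± 0.10, 3.23 ± 0.25 and 3.65 ± 0.15 (SD, n = 3), with no overlap between compartments. Per1 was 2.03 times as high in blood as in bone marrow by summed RPM, a log2 difference of 0.99 (SE 0.15, adjusted p = 0.000378). In tumor it was 2.66 times the level of bone marrow, a log2 difference of 1.41 (SE 0.15, adjusted p = 1.67e-05), and this call held under all 24 alternatives. Against blood, Per1 was higher in tumor by 0.42 (SE 0.15, adjusted p = 0.0262), close to the median of 0.32 over all genes. The value of Per1 turned to -0.06 (adjusted p = 0.762) when each library was centred on its median gene. Without blood library 1 it was 0.27 (adjusted p = 0.107), and without tumor library 2 it was 0.33 (adjusted p = 0.0863).

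Per2 (ENSMUSG00000055866.9, chr1:91415982-91459324, minus strand) encodes a second PERIOD protein, a core part of the repressor complex. Reads numbered 201, 254 and 248 in bone marrow, 429, 1137 and 870 in blood and 174, 198 and 204 in tumor. All 3 blood libraries stood above all others, and tumor lay just below bone marrow without overlap. Mean log2 FPKM was -0.23 ± 0.29 in bone marrow, against 1.89 ± 0.49 in blood and -0.70 ± 0.07 in tumor (SD, n = 3). Per2 was 4.63 times as high in blood as in bone marrow, a log2 difference of 2.11 (SE 0.23, adjusted p = 5.67e-05). In tumor it was 0.155 times the blood level, a log2 difference of -2.59 (SE 0.23, adjusted p = 5.59e-06). Both calls held under all 24 alternatives, in which the difference between tumor and blood lay between -3.06 and -1.55. Tumor against bone marrow gave -0.47 (95% interval -0.99 to 0.05, adjusted p = 0.108), which passed the test without blood library 1 (-0.47, adjusted p = 0.0356), with quantile normalization (-0.80, adjusted p = 0.0101) and with median centring (-0.70, adjusted p = 0.0291).

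Per1 and Per2 were also set against each other within each library. The ratio of their reads within a library does not depend on how libraries are scaled, and it was chosen for display after the values had been seen. It was 2.51, 1.52 and 1.77 in bone marrow, 1.04, 0.763 and 0.814 in blood and 6.30, 7.99 and 6.71 in tumor. The 3 compartments did not overlap, with blood lowest and tumor highest. On the log2 FPKM scale, Per1 minus Per2 was 2.47 ± 0.37 in bone marrow, against 1.35 ± 0.24 in blood and 4.35 ± 0.18 in tumor (SD, n = 3).

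**Figure D3:**
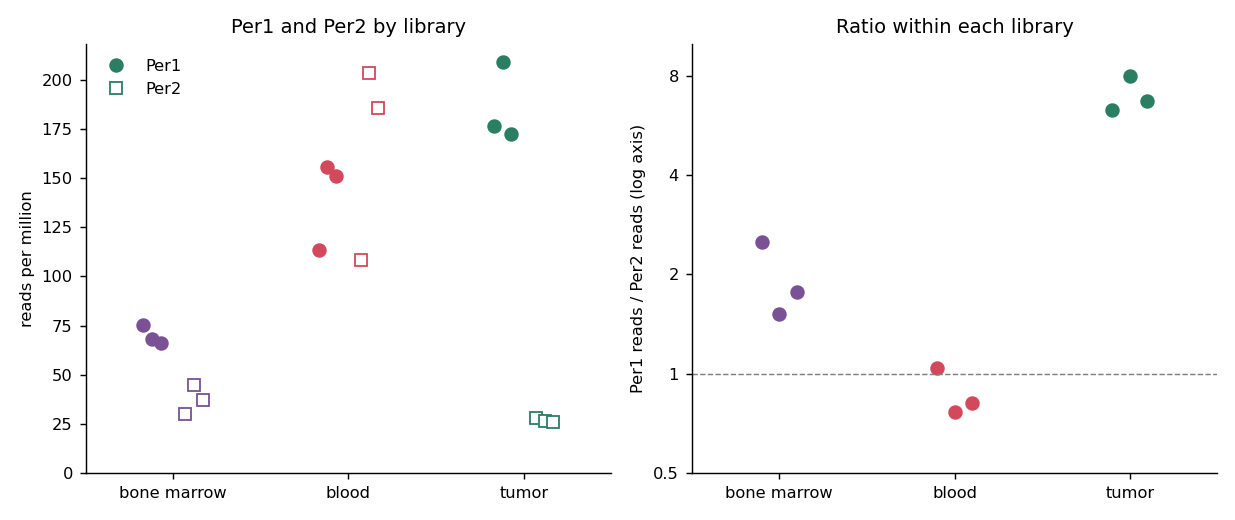
Left, RPM of Per1 (filled circles) and Per2 (open squares) in each of the 9 libraries. Right, the ratio of Per1 to Per2 reads within each library on a log axis, with a dashed line at equal reads. The ratio lies between 0.763 and 1.04 in blood, 1.52 and 2.51 in bone marrow, and 6.30 and 7.99 in tumor.

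Per3 (ENSMUSG00000028957.11, chr4:151003652-151044665, minus strand), the remaining PERIOD gene, had 32, 30 and 24 reads in bone marrow, 7, 25 and 24 in blood and 25, 32 and 32 in tumor. Mean log2 FPKM was -3.17 ± 0.28, -3.56 ± 0.82 and -3.31 ± 0.04 (SD, n = 3), and the compartments overlapped. The log2 difference was 0.25 for tumor against blood (-0.80 to 1.30, adjusted p = 0.658), -0.14 for tumor against bone marrow (-1.19 to 0.91, adjusted p = 0.821) and -0.39 for blood against bone marrow (-1.44 to 0.66, adjusted p = 0.541). With quantile normalization Per3 was called lower in tumor than in blood (-1.82, adjusted p = 0.00549) and than in bone marrow (-1.73, adjusted p = 0.00835). The gene lies within the span of Camta1 on the same strand, which had 7 to 27 reads per library.

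Cry1 (ENSMUSG00000020038.9, chr10:85131700-85185064, minus strand) encodes a CRYPTOCHROME, a repressor of the BMAL1-CLOCK pair. It had 421, 509 and 478 reads in bone marrow, 299, 598 and 505 in blood and 440, 779 and 563 in tumor. Mean log2 FPKM was 0.48 ± 0.26, 0.84 ± 0.29 and 0.59 ± 0.31 (SD, n = 3), and all 3 compartments overlapped. Tumor against blood gave -0.25 (-0.71 to 0.20, adjusted p = 0.298), tumor against bone marrow 0.11 (-0.34 to 0.57, adjusted p = 0.658) and blood against bone marrow 0.37 (-0.09 to 0.82, adjusted p = 0.178). These values moved with the scaling of the libraries. With plain totals Cry1 was called higher in tumor than in bone marrow (0.57, adjusted p = 0.0196) and turned to 0.20 against blood (adjusted p = 0.349). With median centring it was called lower in tumor than in blood (-0.73, adjusted p = 0.0121) and higher in blood than in bone marrow (0.61, adjusted p = 0.0421), and tumor against bone marrow turned to -0.11 (adjusted p = 0.68). Its promoter window, like that of Per1, held an E-box, as printed above.

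Cry2 (ENSMUSG00000068742.10, chr2:92403646-92434043, minus strand), its paralog, had 79, 56 and 74 reads in bone marrow, 75, 75 and 63 in blood and 110, 90 and 146 in tumor. Mean log2 FPKM was -1.47 ± 0.13, -1.01 ± 0.29 and -0.95 ± 0.35 (SD, n = 3). Bone marrow lay below both other compartments, which overlapped. The differences were 0.06 for tumor against blood (-0.51 to 0.63, adjusted p = 0.85), 0.52 for tumor against bone marrow (-0.05 to 1.10, adjusted p = 0.108) and 0.46 for blood against bone marrow (-0.11 to 1.04, adjusted p = 0.175). Without tumor library 2, tumor against bone marrow passed the test at 0.72 (adjusted p = 0.0359), and with plain totals at 0.97 (adjusted p = 0.0133). With median centring, blood against bone marrow passed at 0.71 (adjusted p = 0.0438).

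Nr1d1 (ENSMUSG00000020889.11, chr11:98767932-98775333, minus strand) encodes REV-ERBα, the repressor of Arntl. Bone marrow libraries held 0, 2 and 3 reads, blood libraries 0, 10 and 0, and tumor libraries 29, 47 and 18. All 3 tumor libraries stood above the other 6, and outside the tumor only blood library 2 was above 3 reads. Blood library 2 was also the blood library with the most tumor epithelium reads, 172 RPM against 25.4 and 27.6 in the other two. The same library held 0 reads of Nr1d2 and 0 of Dbp, and the source of its 10 Nr1d1 reads was not tested. Without the tumor libraries, 1 library would have held the 10 reads that the filter asks for. The summed level was 0.263 RPM in bone marrow (95% Poisson interval 0.0855 to 0.615), 0.703 in blood (0.337 to 1.29) and 4.33 in tumor (3.50 to 5.30). This was 16.4 times as high in tumor as in bone marrow and 6.16 times as high as in blood. On the log2 FPKM scale, which depends on the small constant added where reads are 0, the difference of tumor was 4.93 from blood and 4.42 from bone marrow (SE 1.52 for each). Its 3′ end overlaps that of Thra on the opposite strand by 1075 bases, and the protocol kept no strand, so reads in the overlap cannot be assigned. Thra had 24, 9 and 17 reads in bone marrow, 13, 12 and 16 in blood and 28, 28 and 34 in tumor.

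Nr1d2 (ENSMUSG00000021775.10, chr14:18204054-18239127, minus strand) encodes REV-ERBβ. It had 8, 3 and 7 reads in bone marrow, 3, 0 and 9 in blood and 50, 70 and 143 in tumor. The 3 tumor libraries stood apart, and 0 of the other 6 held 10 reads. Summed levels were 0.948 RPM in bone marrow (0.562 to 1.5), 0.844 in blood (0.436 to 1.47) and 12.1 in tumor (10.7 to 13.7), 12.8 and 14.4 times as high in tumor. The log2 difference of tumor was 4.85 from blood and 3.60 from bone marrow (SE 1.22 for each). For blood against bone marrow the difference was -1.25 (-3.95 to 1.44, adjusted p = 0.435), and for Nr1d1 it was -0.51 (-3.88 to 2.86, adjusted p = 0.822). Tumor library 3, which had the most Nr1d2 and the least Nr1d1 of the tumor libraries, also had the highest sums of tumor epithelium and acinar markers, 4782 and 1569 RPM against at most 3174 and 598 in the other two. The part of these cells in the REV-ERB genes was not tested.

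**Figure D4:**
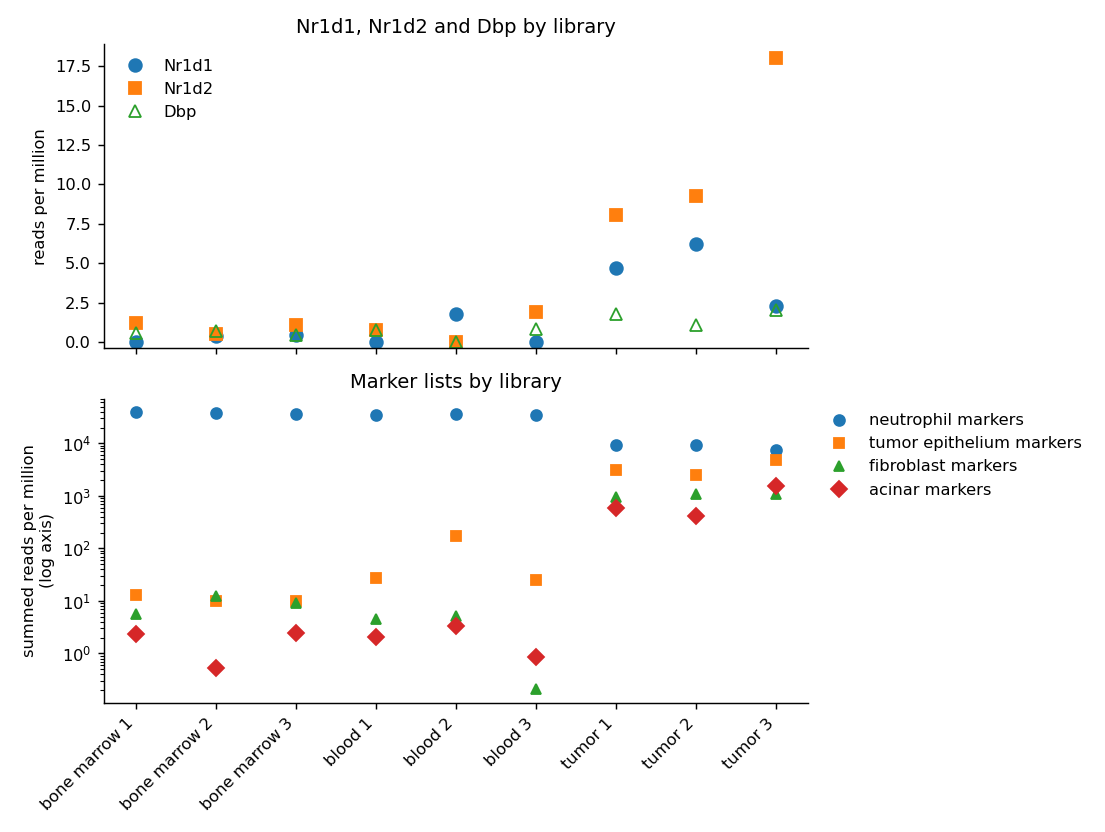
Top, RPM of Nr1d1, Nr1d2 and Dbp in each of the 9 libraries. Bottom, summed RPM of the neutrophil, tumor epithelium, fibroblast and acinar marker lists in the same libraries, on a log axis. Nr1d1 and Nr1d2 are high in the 3 tumor libraries, where the neutrophil sum is 7497 to 9483 against 34334 or more elsewhere and the other 3 sums are highest.

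Dbp (ENSMUSG00000059824.9, chr7:45705088-45710203) encodes a D-box activator and is an output of the loop, often among the genes with the strongest daily rhythm. It had 4, 4 and 3 reads in bone marrow, 3, 0 and 4 in blood and 11, 8 and 16 in tumor, too few for the filter. Tumor libraries were above all others, and the summed level was 1.61 RPM in tumor (1.12 to 2.24), 0.492 in blood (0.198 to 1.01) and 0.579 in bone marrow (0.289 to 1.04). When every gene with at least 5 reads in at least 1 library was tested, Dbp differed by 2.44 between tumor and blood (SE 1.15, adjusted p = 0.096) and by 1.38 between tumor and bone marrow (SE 1.15, adjusted p = 0.349). Dbp thus did not pass that test, although the Poisson interval of tumor, which covers counting error only, lay above those of both other compartments. The limit that a count of 0 allows, 3 reads, was worth 0.378 to 0.759 RPM. Dbp shares 737 bases with Sphk2 on the opposite strand, which had 249 to 430 reads per library.

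Levels were compared between genes as RPM divided by the exon length in kilobases. In bone marrow Cry1 was the highest at 22.4 ± 4.12 (SD, n = 3), followed by Per1 at 12.4 ± 0.882, Per2 at 6.39 ± 1.27 and Cry2 at 1.73 ± 0.154, and none of these neighbours overlapped. The other 6 genes lay between 0.0872 and 0.533. In blood Cry1 at 29.0 ± 5.48, Per2 at 28.3 ± 8.62 and Per1 at 24.9 ± 4.10 overlapped, and Cry2 followed at 2.42 ± 0.507. In tumor Per1 at 33.0 ± 3.57 and Cry1 at 24.4 ± 5.55 overlapped, and Per2 stood well below them at 4.55 ± 0.212. Below Per2, neighbours overlapped all the way from Cry2 at 2.53 ± 0.564 through Nr1d2 at 2.18 ± 1.00, Nr1d1 at 1.43 ± 0.647, Arntl at 0.975 ± 0.0702 and Clock at 0.957 ± 0.361 to Dbp at 0.540 ± 0.166 and Per3 at 0.426 ± 0.0122. Per2 thus came after Per1 and Cry1 in bone marrow and tumor, and stood level with Cry1 and Per1 in blood.

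Arntl was set against the genes of the opposite arm within each library, since BMAL1 and its targets usually peak at opposite times of day. Arntl minus Per2, in log2 FPKM, was -4.69 ± 0.47 in bone marrow, against -6.38 ± 0.48 in blood and -3.16 ± 0.16 in tumor (SD, n = 3). Arntl minus Nr1d1 was 0.36 ± 2.26, 1.29 ± 3.06 and -3.00 ± 0.83, and Arntl minus Dbp was -1.87 ± 0.36, -0.39 ± 2.84 and -2.19 ± 0.44. Relative to Arntl, Per2 was lowest in tumor and highest in blood, with no overlap. For Nr1d1 the tumor libraries were apart from bone marrow but overlapped blood through blood library 2, and for Dbp all compartments overlapped. Without a collection hour no phase can be read from these differences.

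The rest of the clock pathway was described by a list of 31 further genes, of which 30 were found in the table and 26 could be tested. Tumor against blood gave 11 higher and 6 lower, where 39.1% of all genes tested were higher and 27.1% lower. Tumor against bone marrow gave 8 and 5, beside 30.0% and 25.8%, and blood against bone marrow 4 and 7, beside 17.8% and 24.6%. In none of the 3 comparisons did the share of the 26 called in either direction exceed that of all genes. Of the 26, 6 met the filter only through the tumor libraries, among them Arntl2, Rora, Bhlhe41, Ciart and Tef, and Wee1 met it only through bone marrow. The differences of these genes are given with no p. The other 19 gave 5 higher and 6 lower, 3 and 5, and 4 and 6 in the 3 comparisons, with medians of 0.08, 0.07 and -0.01. The median log2 fold change over the 26 was 0.59, 0.44 and 0.07, beside 0.32, 0.09 and -0.11 over all genes. Npas2, Rorb, Fbxl21 and Hlf had too few reads.

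Among the further repressors of the BMAL1-CLOCK pair, Bhlhe40 (DEC1), which competes for the E-box, had 212, 173 and 183 reads in bone marrow, 249, 522 and 271 in blood and 4642, 6962 and 4713 in tumor. It rose by 1.22 from bone marrow to blood (SE 0.20, adjusted p = 0.000776) and was higher in tumor than in blood by 3.41 (SE 0.20, adjusted p = 4.21e-07). Its relative Bhlhe41 (DEC2) had 1, 0 and 0 reads in bone marrow, 4, 0 and 1 in blood and 98, 94 and 93 in tumor. Ciart, which encodes the repressor CHRONO, had 4 to 12 reads in bone marrow, against 5 to 11 in blood and 409 to 605 in tumor, 46.5 times the blood level by summed RPM and a log2 difference of 5.58 (SE 0.53). For each of these 3 repressors the tumor libraries lay above the other 6, and Bhlhe40 alone of them met the filter without tumor.

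Arntl2, the paralog of Arntl, had 1, 0 and 1 reads in bone marrow, 0, 1 and 2 in blood and 117, 72 and 174 in tumor. The log2 difference of tumor from blood was 6.69, which depends on the constant added to values at 0. Rora, which encodes RORα and acts against REV-ERB at shared sites, had 15 to 53 reads in tumor, against 1 to 8 in blood and 1 to 3 in bone marrow, a log2 difference of tumor of 3.36 from bone marrow and 2.00 from blood. Arntl2 had at most 2 reads in any library outside the tumor, where the tumor epithelium markers were also low, and the part of those cells in its level was not tested.

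Of the D-box factors, Tef, a relative of Dbp, had 20 to 85 reads in tumor, against 0 to 8 in blood and 4 to 17 in bone marrow, with a log2 difference of tumor from blood of 3.97 (SE 1.29). Nfil3, which represses at the same site, differed by 1.27 (0.04 to 2.5, adjusted p = 0.0644). The genes lower in tumor than in blood included Ncor1, with a log2 difference of -1.46 (adjusted p = 3.53e-06), Gsk3b at -0.99 (adjusted p = 3.25e-05), Csnk2b at -0.69 (adjusted p = 0.0172), Usp2 at -0.68 (adjusted p = 0.0464) and Csnk1d at -0.49 (adjusted p = 0.0068). The differences of these further genes were read under the authors' scaling only. With plain totals the median over all genes for tumor against blood was 0.76 in place of 0.32. Small differences, such as those of Csnk1d, Usp2 and Csnk2b, may therefore not hold under another scaling, which was not tested. NCOR1 is the corepressor that REV-ERB proteins recruit. HDAC3, the deacetylase that works with NCOR1, went the other way, with Hdac3 higher in tumor than in blood by 1.29 (adjusted p = 3.31e-05). Ccrn4l, the gene of the rhythmic protein Nocturnin, and Timeless, which acts in the cell cycle, were lower in blood than in bone marrow, with log2 differences of -2.16 and -4.04 (adjusted p = 0.000433 and 0.000215) and higher in tumor than in blood by 2.59 and 4.10 (adjusted p = 5.43e-05 and 8.03e-05). Timeless had 1 to 4 reads in blood, against 28 to 78 in bone marrow and 49 to 85 in tumor. The size of its differences from blood thus rests on few reads. Nampt, which makes NAD for the clock-linked deacetylase SIRT1, gave -0.02 for tumor against blood (-0.47 to 0.43, adjusted p = 0.939).

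**Figure D5:**
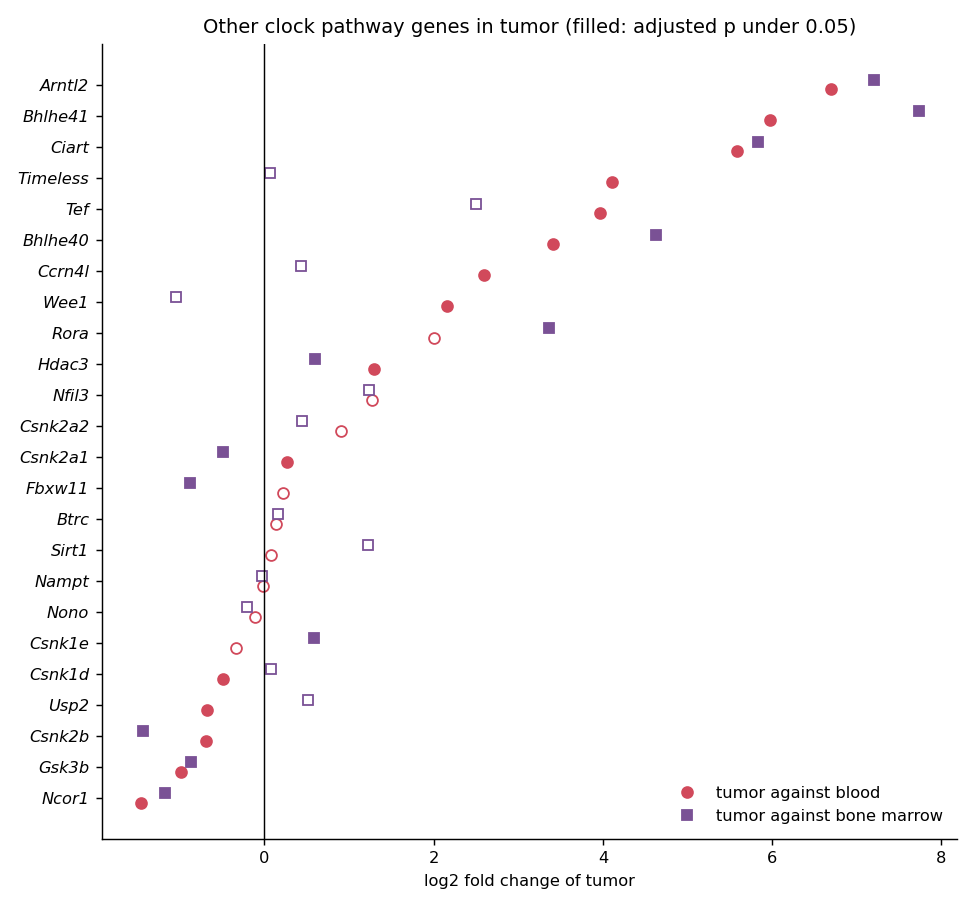
Log2 fold change of tumor against blood (circles) and tumor against bone marrow (squares) for 24 of the 26 further clock pathway genes tested, ordered by the first. Filled symbols have an adjusted p under the threshold. Arntl2, Bhlhe41, Ciart and Bhlhe40 lie at the upper end in both comparisons, where the values of genes near 0 reads outside the tumor depend on the constant added. Arntl2, Bhlhe41, Ciart, Tef and Rora met the filter on reads only through tumor, and Wee1 only through bone marrow. Any filled symbols of these genes are a description only. Ncor1, Gsk3b and Csnk2b lie toward the lower end in both.

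For each clock gene that passed the F-test, the 2 genes with the most similar pattern over the 9 libraries were found by the root mean square difference of centred log2 FPKM, among 7917 or 7918 genes with at least 10 reads in every library. Per2 was nearest to Tbc1d14 (0.22) and Myadm (0.226), small beside its own SD over the libraries of 1.16. Per1 was nearest to Rcn2 (0.119) and Trem1 (0.144), and Arntl to Slc25a17 (0.157) and Cfap20 (0.161), beside SDs of 0.608 and 0.46. Nr1d1 had no close neighbour, with Best1 at 1.68 and Tnfaip3 at 1.71, and Nr1d2 had Tmem176b at 1.3 and Mtap at 1.31. Genes with fewer than 10 reads in a library, as Nr1d1 and Nr1d2 themselves have, could not be neighbours.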

How the data were processed

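The authors sequenced RNA of sorted neutrophils after SMARTSeq v2 amplification, which keeps no strand. Per the labels and the study's methods, reads were mapped to GRCm38 with STAR 2.5.2b and counted per GENCODE M7 gene with featureCounts 1.5.0, and edgeR 3.8.6 is named in the submitters' processing notes. The deposited values are log2 FPKM for 46517 genes and 9 libraries. Their steps gave back whole reads for all 46517 genes, within 0.01 of a whole number, with a constant of 0.2206 reads added in a library of mean size. The gene length behind FPKM was the genomic span for 84.87% of the genes with a span in GENCODE M21, so introns lower the FPKM of long genes. The filter was therefore set on reads, at least 10 in at least 3 libraries, which left 13014 genes.

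These genes entered a linear model in limma 3.58.1 (R 4.3.3), with eBayes and a trend over mean log2 reads, on the deposited log2 FPKM in a single fit of all 9 libraries. The tests were two-sided, and a gene was called at a Benjamini-Hochberg adjusted p under 0.05. The study's own limma-voom test needs counts, so it was run on the recovered reads as an alternative. Levels per exon use exon lengths of GENCODE M21. Poisson intervals cover counting error only, since reads were not corrected for PCR duplicates. Each compartment was sampled in 3 independent experiments of pooled mice. Both steps were tested on simulated data.

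The clock genes, the lists of further clock pathway, glucocorticoid response, CREB pathway and neutrophil ageing genes and the marker lists were chosen with earlier results of these data known. All 10 clock genes are named. Of the other lists, genes called in at least 1 comparison are named, with the largest changes first, and Nfil3, Nampt and genes overlapping a clock gene are named with their values. Nfil3 and Nampt were added after their values were seen. Some members of these lists are not reported here. For genes called by the F-test, the 2 most similar genes are named. Same-numbered libraries had correlations of their deviations of -0.143 to 0.0787 in 9 pairs, 0 of them over 0.1, and the numbers were not taken as pairs. With 3 libraries per compartment, these correlations cannot show that the compartments were not matched by experiment. The paper describes them as from the same mice, and a replicate block is among the alternatives. The alternatives were 4 filters, 2 pseudocounts, 3 scalings, 2 variance models, limma-voom, the 2 compartments alone, a replicate block, a fold threshold and each library left out in turn, 24 in all.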

Additional observations from a re-analysis of the deposited data

How the results depend on the processing

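Of 621 values of single clock genes under the alternatives, 541 kept their direction and their side of the threshold, 28 lost a call, 20 gained one and 32 changed sign. Calls of Per2 for blood against both other compartments and of Per1 for tumor against bone marrow held under all 24. Nr1d1 and Nr1d2, which met the filter on reads only through tumor, are among the 621 values and in the counts of calls below. The totals therefore describe the settings only, and how often the calls of Nr1d1 and Nr1d2 held is not read as stability. A filter on log2 FPKM left 3 of the 10 genes, so 1 was higher in tumor than in blood, 1 higher than in bone marrow and 2 passed the F-test. Of all 7794 genes it left, 2205 and 1766 were higher in tumor in these comparisons. At least 50 reads left 6, of which 2 were higher in tumor than in bone marrow and 3 passed the F-test. Of all 9215 genes left there, 2754 were higher in tumor than in bone marrow. Shares of all genes by the F-test under other settings are not given here. Plain library totals gave 7 higher in tumor than in bone marrow and 8 by the F-test, with Cry1 at 0.20 in tumor against blood and Per3 at 0.31 in tumor against bone marrow. Quantile normalization gave 4 lower in tumor than in blood, 2 higher and 3 lower than in bone marrow, with Arntl, Clock, Per3 and Cry2 at -1.99, -1.68, -1.82 and -0.63 against blood, Arntl and Clock at -1.24 and -0.65 against bone marrow, and Per3 and Nr1d1 at 0.089 and 0.16 for blood relative to bone marrow. Median centring gave 2 lower in tumor than in blood, 1 lower than in bone marrow and 5 higher in blood than in bone marrow, with Clock, Per1, Per3 and Cry2 at -0.41, -0.056, -0.23 and -0.42 in tumor against blood and Cry1 at -0.11 in tumor against bone marrow. A fold threshold left 1 gene, Per2, higher in blood than in bone marrow, beside 1501 of all 13014 genes. Nr1d1 in blood against bone marrow was 0.053 and 0.17 with pseudocounts of 1 and 0.1 and 0.23 with limma-voom. Beyond the settings' own construction, the cause of these changes was not tested.

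Leaving out each library in turn gave 1 to 3 genes higher and 1 lower in tumor than in blood, 1 to 4 higher and 0 to 1 lower in tumor than in bone marrow, 2 to 3 higher in blood than in bone marrow and 2 to 5 by the F-test. Over all 13014 genes it gave 4670 to 5012 higher and 3209 to 3488 lower in tumor than in blood. Against bone marrow it gave 3442 to 3986 higher and 2839 to 3368 lower in tumor, and 1896 to 2393 higher in blood. The lowest counts came without blood library 1 or tumor library 2 (1 higher in tumor than in blood) and without tumor library 3 (1 higher in tumor than in bone marrow, 2 by the F-test). Without any 1 bone marrow library, 2 were higher in tumor than in bone marrow. Signs changed for values near 0. Tumor against blood ran from -0.22 to 0.53 for Per3, -0.053 to 0.26 for Cry2 and -0.21 to 0.36 for Clock, tumor against bone marrow from -0.065 to 0.25 for Cry1, and blood against bone marrow from -0.67 to 0.085 for Per3, -2.40 to 0.43 for Nr1d1 and -2.43 to 0.45 for Nr1d2.

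With the replicate number as a block, 3 genes were higher and 1 lower in tumor than in blood, 4 and 0 between tumor and bone marrow, 2 and 0 between blood and bone marrow, and 4 passed the F-test, so the replicate block changed no call between 2 compartments. Over all 13014 genes the block gave 5061 and 3529, 3894 and 3365, and 2315 and 3200 in the 3 comparisons. Nr1d1, Nr1d2 and Dbp had 0 to 10 reads per library outside the tumor, and depth limits what can be said of their level there.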

Other observations

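Glucocorticoid response genes, read here because Per1 is one of the genes that glucocorticoids induce, were called higher for 5 of the 7 listed and lower for 0 in blood against bone marrow, where 17.8% of all genes were higher and 24.6% lower. In tumor against blood, 5 were lower and 2 higher, beside 27.1% and 39.1% of all genes, and in tumor against bone marrow, 3 were lower and 2 higher, beside 25.8% and 30.0%. Tsc22d3, which encodes the glucocorticoid-induced leucine zipper, had 6114 to 7287 reads in bone marrow, against 14914 to 26805 in blood and 3290 to 3920 in tumor. It was higher in blood than in bone marrow by 2.05 on the log2 scale (SE 0.13, adjusted p = 1.36e-06) and lower in tumor than in blood, with a difference of -3.07 (SE 0.13, adjusted p = 8.66e-08). Zbtb16, Sgk1 and Nr3c1, the last of which encodes the glucocorticoid receptor, were also lower in tumor than in blood, with differences of -2.62, -1.88 and -1.33, and higher in blood than in bone marrow, by 2.18, 1.76 and 0.57. Dusp1 and Klf9 were higher in tumor than in blood by 0.49 (adjusted p = 0.0189) and 1.41 (adjusted p = 0.0398). These values were read under the authors' scaling only. There the median over all genes for tumor against blood was 0.32, and with median centring it was -0.15. A difference as small as that of Dusp1 may therefore not hold under another scaling, which was not tested.

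Of 7 CREB pathway genes, which carry the cyclic AMP signal, 2 were higher and 2 lower in tumor than in blood, beside 39.1% and 27.1% of all genes. Against bone marrow 2 were higher and 1 lower in tumor, beside 30.0% and 25.8% of all genes. In blood 1 was higher and 0 lower than in bone marrow, beside 17.8% and 24.6%. Crem, an inducible member, was higher in tumor than in blood by 1.5 (SE 0.29, adjusted p = 0.00109), and Creb1 was lower, at -1.11 (SE 0.19, adjusted p = 0.000551). Of 4 genes that mark the ageing of circulating neutrophils, 3 were lower in tumor than in blood (among them Cxcr2 at -2.39 and Cxcr4 at -0.83 on the log2 scale) and 1 was higher (Cxcl2 at 7.21). Over all genes 27.1% were lower and 39.1% higher in that comparison. In tumor against bone marrow 2 were lower and 1 higher, beside 25.8% and 30.0% of all genes. In blood against bone marrow 2 were higher and 1 lower, beside 17.8% and 24.6%. The lists are described by counts, to be read against these shares over all genes, and were not tested as sets.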
